A study of Homo sapiens with 6 samples.

Results

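The genes examined were 10 members of the BCL2 family, chosen by symbol from the 26485 genes in the table of read counts: *BCL2*, *BCL2L1*, *BCL2L2*, *MCL1*, *BAX*, *BAK1*, *BBC3*, *BID*, *BCL2L11* and *BNIP3L*. All 10 had counts in every culture and passed the filter on low counts, which 14877 genes passed. RNA-seq had been performed on 3 cultures of HEK293, an established human embryonic kidney cell line, in which the long noncoding RNA *HSALNG0134318* was knocked down, and on 3 control cultures. For the knockdown, cells were transiently transfected with a Smart Silencer, which combines small interfering RNAs with antisense oligonucleotides against that RNA. The sample titles spell the line HEK393 and its other labels HEK293. The controls are labelled NC and WT, and what they were transfected with is not given in the sources used here. The study describes the cultures as biological replicates, and the silenced RNA itself was not analysed here, so its level was not used to check the labels.

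BCL2 proteins decide whether the outer membrane of the mitochondrion is opened during apoptosis. The guardians (*BCL2*, *BCL2L1*, *BCL2L2* and *MCL1*) keep the pore-forming effectors BAX and BAK1 in check, and the BH3-only proteins, among them the products of *BBC3*, *BID* and *BCL2L11*, bind the guardians or activate the effectors after a stress. Once the membrane is open, cytochrome c leaves the mitochondrion and switches on caspases. HEK293 cells carry transforming early genes of an adenovirus, among whose products is a viral counterpart of the guardians, and these viral genes were not analysed here.

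After *HSALNG0134318* knockdown, 0 of the 10 members were called lower and 0 were called higher. A call here means that edgeR's quasi-likelihood test, adjusted after Benjamini and Hochberg for all genes tested, gave a p below 0.05. Of all genes tested, 4.64% were called lower and 5.40% higher. At an unadjusted p under 0.05, 4 members differed, against 26.9% of all genes. These were the guardians *BCL2L1* (BCL-XL) and *BCL2L2* (BCL-W), with higher values in the knockdown group, and *BCL2L11* (BIM) and *BNIP3L*, with lower values. With the DESeq2 Wald test 2 members were called higher, *BCL2L1* and *BCL2L2*, against 6.16% of all genes called higher and 5.73% lower with that test, and with limma-voom none was called, against 5.48% of all genes called higher and 4.36% lower. In 5 members the knockdown and control cultures were fully separated, a state found in 32.2% of all genes tested. The median log2 fold change of the members was -0.05, against -0.02 over all genes.

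**Figure D1:**
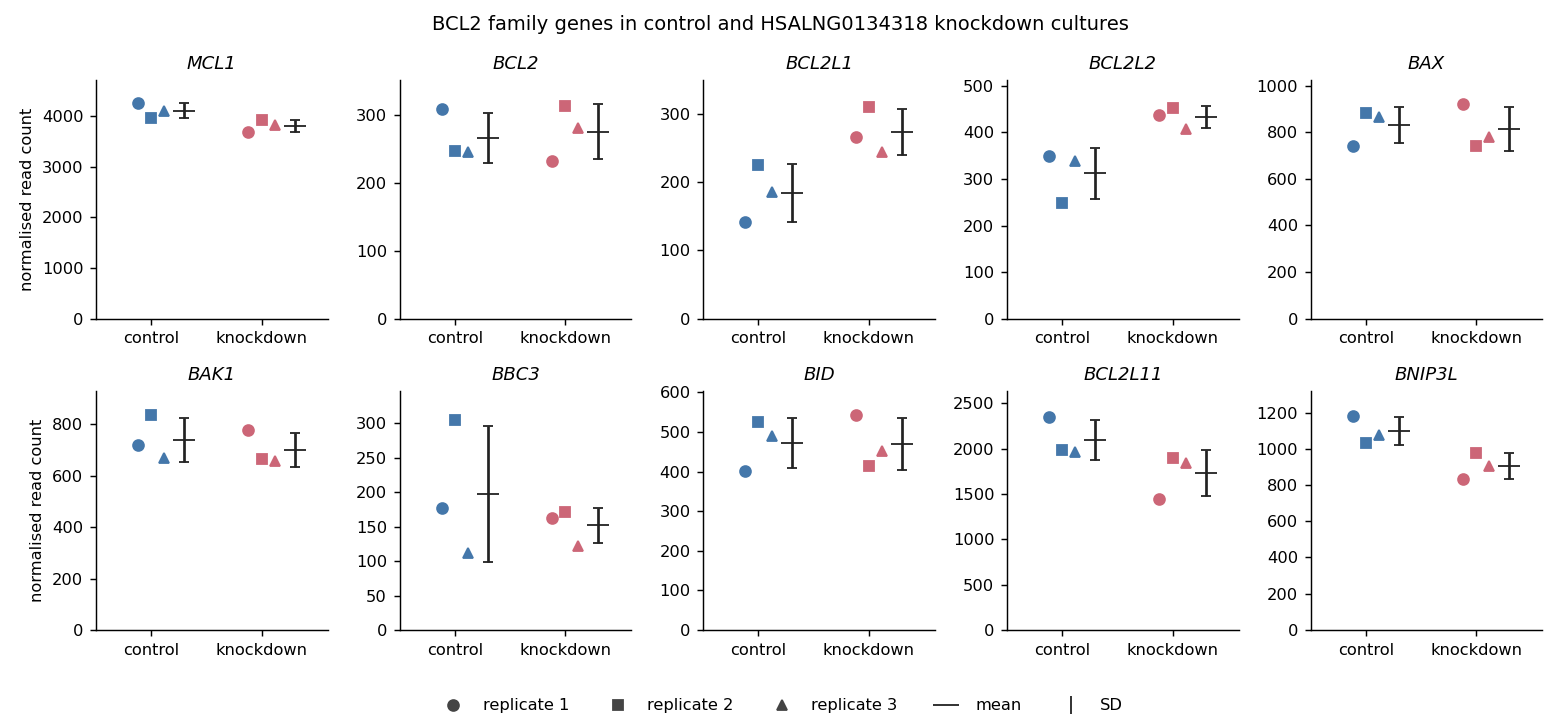
Normalised read counts (vertical axes, from 0) of the 10 members in the 3 control and 3 knockdown cultures, 1 marker per culture, with the mean and SD beside them. The groups are apart in *MCL1*, *BCL2L1*, *BCL2L2*, *BCL2L11* and *BNIP3L* and overlap in the other genes.

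The libraries held 13900965 to 15583535 counts in the knockdown group and 14732648 to 16869948 in the control group. All 7 genes fixed as markers of the line were counted in every culture (at least 95 counts each), among them *VIM*, *KRT8* and *PAX2*, and none was called. The 9 markers of blood, endothelium, fibroblasts and hepatocytes had at most 15 counts in any culture. Control replicate 2 stood apart from the other controls, with a chi-square per gene of 24.9 and 26.2 against them, compared with 9.36 between control replicates 1 and 3 and 1.93 to 6.16 between knockdown replicates.

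Among the guardians, *BCL2L1* had the largest difference. It encodes BCL-XL, which restrains BAX and BAK1, and lies on the minus strand of chromosome 20 from 31664452 to 31723989 (GENCODE release 44, hg38). In knockdown replicates 1, 2 and 3 it had 266, 310 and 244 normalised counts. The control replicates had 142, 226 and 185. Every knockdown culture was above every control culture, with the lowest knockdown value close to the highest control value. The means were 273 ± 33.6 (SD, n = 3) and 184 ± 42.0 (SD, n = 3), which on the log2 scale is a difference of 0.56 (standard error 0.18, 95% interval 0.17 to 0.96, adjusted p of 0.070 from edgeR). Without control replicate 2, the log2 fold change was 0.74 and the edgeR adjusted p 0.0059, where 8.45% of all genes were called higher and 8.21% lower. Without knockdown replicate 2, the fold change of *BCL2L1* was 0.47 on the log2 scale and the edgeR adjusted p 0.26. Counts were taken per gene, so the long and short splice forms of *BCL2L1*, whose products oppose each other, could not be told apart.

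The antisense gene *ABALON* covers 945 of the 2574 bases of the main *BCL2L1* transcript, and the strand setting of the counting is not given in the sources used here. *ABALON* had 21, 22 and 33 counts in the knockdown replicates and 17, 10 and 6 in the control replicates, with a log2 fold change of 1.27 (edgeR adjusted p of 0.080). Its values were higher in the knockdown group, as were those of *BCL2L1*, and reads from the shared stretch could have been assigned to either gene or to neither.

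*BCL2L2* encodes BCL-W, a guardian close to BCL-XL, and sits at 23298790 to 23311751 on chromosome 14, plus strand. It had 438, 453 and 407 normalised counts in the knockdown replicates and 350, 249 and 337 in the control replicates. The groups did not overlap, and control replicate 2 was the lowest culture. The log2 fold change was 0.47 (standard error 0.14, 95% interval 0.16 to 0.79, adjusted p of 0.062 from edgeR), and it was 0.33 without control replicate 2, with an edgeR adjusted p of 0.061. Once libraries had been corrected for GC content and for length, *BCL2L1* and *BCL2L2* both passed the threshold, with edgeR adjusted p of 0.021 and 0.044. That correction raised the share of all genes called to 9.64% for higher and 9.01% for lower. The readthrough gene *BCL2L2-PABPN1* shares 590 of the 3526 bases of the main *BCL2L2* transcript and had 0 to 8 counts per culture.

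*MCL1* (chromosome 1, 150560895 to 150579738, minus strand) encodes a guardian whose protein and mRNA are known to turn over rapidly. It had 3679, 3913 and 3817 normalised counts in the knockdown replicates and 4256, 3964 and 4094 in the control replicates. The groups were apart by a narrow margin between knockdown replicate 2 and control replicate 2. The log2 fold change was -0.11 (standard error 0.08, 95% interval -0.29 to 0.07, adjusted p of 0.42 from edgeR), which as a percentage is a difference of -7.34% with an interval from -18.1% to 4.88%.

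*BCL2* itself (chromosome 18, 63123346 to 63320128, minus strand), the founding member of the family, had 232, 313 and 280 normalised counts in the knockdown replicates and 309, 246 and 245 in the control replicates. The groups overlapped, and each had 1 culture near the top of the range. The log2 fold change was 0.04 (95% interval -0.29 to 0.38, adjusted p of 0.89 from edgeR), so differences from -18.5% to 30.4% lie within the interval. Its sign changed without knockdown replicate 2 or control replicate 2 or 3.

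Between the guardians, levels were compared as normalised counts per kilobase of the MANE Select transcript, the reference transcript agreed on by RefSeq and Ensembl. *MCL1* made up 84.4%, 83.8% and 83.6% of the summed level of the 4 guardians in the control replicates. In the knockdown replicates its share was 78.1%, 77.1% and 79.4%, below every control culture. The share of *BCL2L1* was 4.32%, 7.33% and 5.80% in the control replicates and 8.67%, 9.37% and 7.78% in the knockdown replicates. That of *BCL2L2* was 7.77%, 5.90% and 7.72% against 10.4%, 9.99% and 9.48%. These shares come from the same counts as the fold changes above and were not tested separately. In the reported fit, none of the 4 guardians was called. The summed level of the guardians overlapped between the groups, with 1198 to 1277 normalised counts per kilobase in the control group and 1193 to 1285 in the knockdown group. With the length of all annotated exons in place of the main transcript, the share of *MCL1* was 83.2% to 84.0% in the control group and 76.6% to 78.9% in the knockdown group.

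The effectors differed by less than the spread between cultures. *BAX* (chromosome 19, 48954815 to 48961798, plus strand) had 922, 741 and 777 normalised counts in the knockdown replicates and 742, 883 and 864 in the control replicates. The overlap was nearly complete, with knockdown replicate 1 highest and knockdown replicate 2 and control replicate 1 lowest. On the log2 scale it differed by -0.03 (edgeR adjusted p of 0.90, standard error 0.12), with a 95% interval from -18.0% to 17.2%, and by 0.02 without control replicate 2. *BAK1* (chromosome 6, 33572547 to 33580293, minus strand) had 778, 667 and 657 normalised counts in the knockdown replicates and 719, 835 and 668 in the control replicates. These groups also overlapped, with a difference of -0.08 on the log2 scale (edgeR adjusted p of 0.71, standard error 0.12), with an interval from -21.2% to 13.3%. Without control replicate 2 it was 0.02.

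Ratios within a culture do not depend on how libraries are scaled. The log2 ratio of *BAX* to *BCL2* counts was 1.99, 1.24 and 1.47 in the knockdown replicates and 1.26, 1.84 and 1.82 in the control replicates, a difference of -0.07 (exact two-sided permutation test, p = 0.9, n = 3 per group). For *BAK1* to *MCL1*, the guardian that is a main restraint of BAK1, it was -2.24, -2.55 and -2.54 in the knockdown replicates and -2.57, -2.25 and -2.62 in the control replicates, a difference of 0.03 (exact permutation test, p = 0.5). The groups overlapped in both ratios. With 3 cultures against 3, the smallest p this test can give is 0.1.

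Of the 3 BH3-only members, *BCL2L11* alone had groups that did not overlap. It encodes BIM, which binds all guardians and activates BAX and BAK1, and sits at 111119378 to 111168444 on chromosome 2, plus strand. The knockdown replicates had 1442, 1901 and 1845 normalised counts. The control replicates had 2351, 1981 and 1963. Knockdown replicate 1 and control replicate 1 were the extremes, and the other 4 cultures lay close together without overlap. The log2 fold change was -0.28 (standard error 0.12, 95% interval -0.54 to -0.02, adjusted p of 0.16 from edgeR), which was -0.16 without knockdown replicate 1 (adjusted p of 0.45) and -0.32 without control replicate 2 (adjusted p of 0.064). On the opposite strand, *MIR4435-2HG* shares 727 of the 5098 bases of its main transcript, with 97 to 110 counts per culture.

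*BBC3* (chromosome 19, 47220822 to 47232766, minus strand) encodes PUMA, a BH3-only protein that binds all guardians. It varied most among the members, with 162, 171 and 122 normalised counts in the knockdown replicates and 177, 305 and 111 in the control replicates. The control values spanned all knockdown values, and control replicate 2 alone was above 200. On the log2 scale the difference was -0.39 (standard error 0.32, 95% interval -1.10 to 0.33, adjusted p of 0.48 from edgeR), and it was 0.08 without control replicate 2.

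*BID* (chromosome 22, 17734138 to 17774770, minus strand) encodes the BH3 protein that death receptors activate through caspase-8. It had 542, 415 and 452 normalised counts in the knockdown replicates and 401, 525 and 491 in the control replicates. The groups overlapped throughout, with knockdown replicate 1 highest and control replicate 1 lowest. On the log2 scale the groups differed by -0.01 (edgeR adjusted p of 0.98, standard error 0.14), with a 95% interval from -19.8% to 23.3%, and without control replicate 2 by 0.08.

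*BNIP3L* (chromosome 8, 26383054 to 26505636, plus strand) encodes NIX, a protein of the outer mitochondrial membrane that recruits the autophagy machinery to remove mitochondria. It had 832, 974 and 905 normalised counts in the knockdown replicates and 1182, 1031 and 1076 in the control replicates. All knockdown cultures were below all control cultures. The log2 fold change was -0.28 (standard error 0.10, 95% interval -0.50 to -0.06, adjusted p of 0.11 from edgeR). *BNIP3L* was called without control replicate 2, at a log2 fold change of -0.32 and an edgeR adjusted p of 0.034, and in no other alternative. In bulk RNA, a lower count from fewer cells that express a gene and one from less RNA per cell cannot be told apart.

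**Figure D2:**
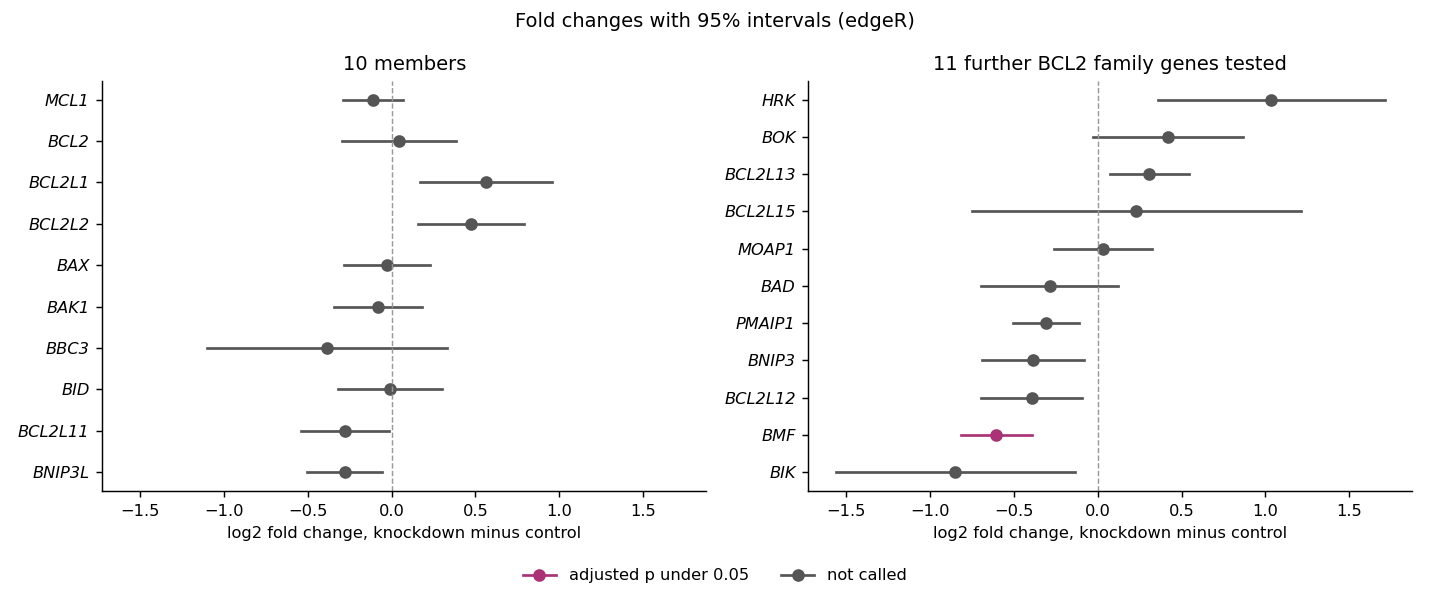
Log2 fold changes (horizontal axes, knockdown minus control) with 95% intervals from edgeR for the 10 members and for the 11 further family genes tested. Among the members, the intervals of *BCL2L1*, *BCL2L2*, *BCL2L11* and *BNIP3L* leave out 0, and of all 21 genes *BMF* alone, at -0.60, had an adjusted p under 0.05.

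Per kilobase of transcript, the members spanned a wide range of levels in the control group. *BAX* (1044 ± 96.3 normalised counts per kilobase, SD, n = 3) and *MCL1* (1039 ± 37.1) were highest, and their values overlapped. *BCL2L11* (412 ± 43.0) and *BAK1* (341 ± 39.6) followed, their nearest values both at 385 without overlap, and *BAK1* overlapped with *BNIP3L* (318 ± 22.4). *BID* (217 ± 29.4) lay below these, without overlap with *BNIP3L*. *BBC3* (107 ± 53.5), *BCL2L2* (88.5 ± 15.6) and *BCL2L1* (71.6 ± 16.3) came next below *BID*, each overlapping with the one after it, and *BCL2* was lowest at 38.8 ± 5.34, below every *BCL2L1* value. In the knockdown group the first 6 genes kept this order, where *BCL2L11* overlapped with *BAK1* and *BNIP3L* with *BID*. *BCL2L2* (123 ± 6.63) and *BCL2L1* (106 ± 13.1) came next, both above *BBC3* (82.2 ± 14.02) in every culture. Parts of this order depended on the length used. The main transcript of *BAX* has 795 bases and its annotated exons cover 2587. With the length of all annotated exons, *BAX* had rank 3 in the control group, behind *MCL1* and *BAK1*. There *BAK1* (rank 2) stood above *BCL2L11* (rank 4), and *BCL2L2* (rank 7) above *BBC3* (rank 8), both the reverse of the order by main transcript.

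**Figure D3:**
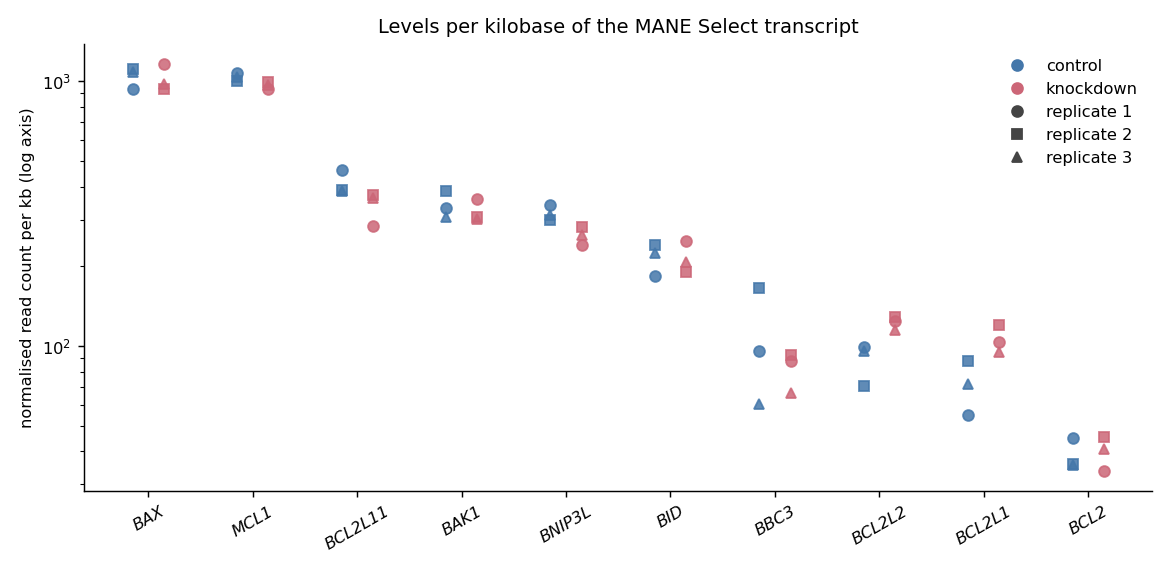
Normalised read counts per kilobase of the MANE Select transcript (vertical log axis) for the 10 members in each control and knockdown culture. *BAX* and *MCL1* lie near 1000 in both groups, and *BCL2* lies lowest, near 40.

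The members differ in base composition, from 37.4% G and C in the main transcript of *BNIP3L* to 69.7% in that of *BBC3*, and the libraries differed along this axis. For the classes over all genes and the correction below, GC content and length were those of the longest annotated transcript of each gene. This need not be the main transcript, whose GC content is given for the members. In control replicate 2, genes with over 55% GC had a median deviation of 0.19 on the log2 scale from their mean over the 6 cultures. In control replicates 1 and 3 it was -0.09 and -0.10, and in the knockdown replicates it lay between -0.03 and 0.05. *BBC3* deviated by 0.88 in control replicate 2 and by -0.56 in control replicate 3. *BAK1* (58.6% GC) was also highest in control replicate 2, at 0.22, whereas *BCL2L2* (51.9% GC) was lowest there, at -0.55. The other members with over 55% GC were not highest in control replicate 2. *BAX* (60.8% GC) deviated by 0.11 in it and by 0.17 in knockdown replicate 1. *BCL2L1* (56.6% GC) deviated by 0.025 in control replicate 2 and by 0.48 in knockdown replicate 2. With each library corrected for GC content and transcript length, the log2 fold change of *BBC3* was -0.25 and that of *BNIP3L* -0.19, while that of *BCL2L11* was -0.30 (edgeR adjusted p of 0.057).

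**Figure D4:**
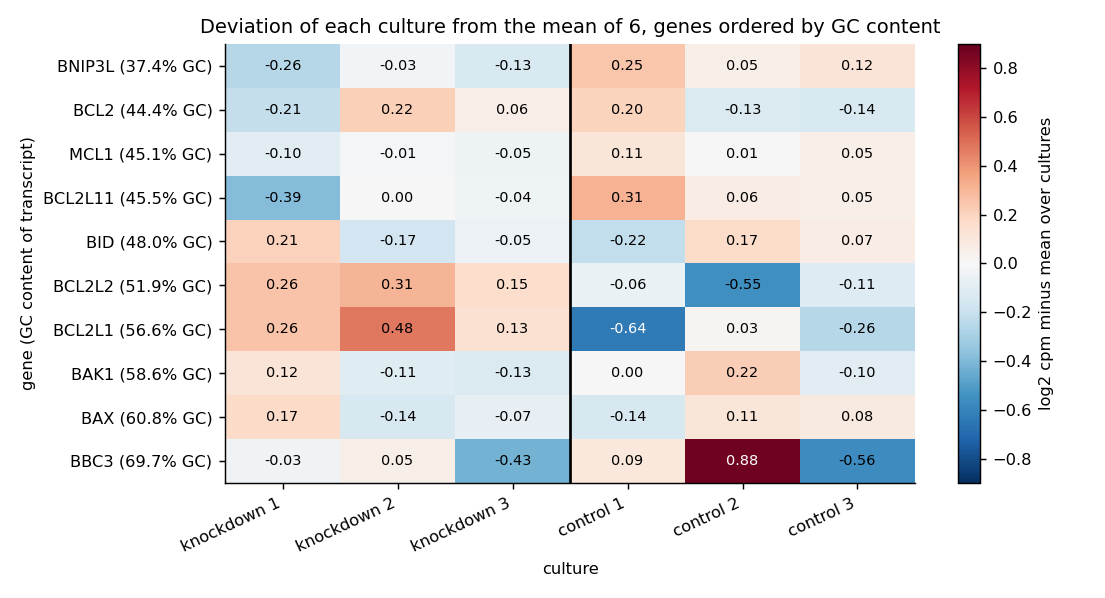
Deviation of each member in each culture from its mean over the 6 cultures (log2 cpm, counts scaled to library size, colour and printed value), with genes ordered from low to high GC content of the main transcript. *BBC3* reaches 0.88 in control replicate 2, and *BCL2L1* and *BCL2L2* are above their mean in all 3 knockdown cultures.

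Promoter sequences are shown for 3 family genes, *BCL2L1* as the member with the largest positive fold change, *BCL2L11* as the BH3-only member whose groups did not overlap and *BMF* as the family gene that was called. The windows are from RefSeq on GRCh38.p14 and run from 250 bases before to 50 bases after a transcription start, taken at the annotated start nearest to the main transcript. They are written 5′ to 3′ on the strand of the gene, and capitals mark the GC box GGGCGG and the core GTAAACA of FOXO factors, each searched on both strands. The *BCL2L1* window is chr20:31722819-31723118 (minus strand), that of *BCL2L11* chr2:111120664-111120963 (plus strand) and that of *BMF* chr15:40108830-40109129 (minus strand).
BCL2L1: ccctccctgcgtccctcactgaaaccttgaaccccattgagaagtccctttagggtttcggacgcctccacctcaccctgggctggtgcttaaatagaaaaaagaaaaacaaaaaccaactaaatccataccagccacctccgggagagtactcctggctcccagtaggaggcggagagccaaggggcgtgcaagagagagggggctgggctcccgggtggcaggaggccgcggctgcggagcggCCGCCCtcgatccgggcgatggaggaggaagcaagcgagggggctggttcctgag
BCL2L11: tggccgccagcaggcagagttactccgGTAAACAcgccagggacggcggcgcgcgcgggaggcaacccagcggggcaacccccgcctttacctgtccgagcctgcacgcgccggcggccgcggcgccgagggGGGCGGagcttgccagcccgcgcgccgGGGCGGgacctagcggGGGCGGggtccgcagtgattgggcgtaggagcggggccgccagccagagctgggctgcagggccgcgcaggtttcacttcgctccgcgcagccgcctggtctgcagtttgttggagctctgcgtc
BMF: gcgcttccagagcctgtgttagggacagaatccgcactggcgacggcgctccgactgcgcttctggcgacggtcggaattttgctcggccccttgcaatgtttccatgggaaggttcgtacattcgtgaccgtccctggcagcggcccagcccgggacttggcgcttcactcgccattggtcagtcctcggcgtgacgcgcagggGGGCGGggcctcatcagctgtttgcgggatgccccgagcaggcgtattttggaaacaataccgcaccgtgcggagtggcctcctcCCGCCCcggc

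The window of *BCL2L11* held 3 GC boxes and 1 FOXO core, that of *BCL2L1* 1 GC box and that of *BMF* 2. FOXO factors are known to activate *BCL2L11* when AKT signalling is low. Windows were used for 7 members, and none was used for *MCL1*, *BCL2L2* or *BNIP3L*. Any window on chromosome 8, where *BNIP3L* lies, was left out by a fixed rule. A GC box stood in 5 of the 7 (15786 of all 35116 promoters) and the letters CCAAT in 4 (34.6%). The FOXO core stood in 1 of the 7, against 3.42% of all promoters. The E2F letters TTTGGCGC or TTTCGCGC (1.15% of all) and TATAAA (11.5%) were in none of the 7. The window of *BBC3* had 48.0% GC and 5 CpG pairs, and that of *BCL2L11* 74.7% and 39, against medians of 58.7% and 14 over all promoters.

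Of 14 further family genes, 11 were tested, of which 1 was called lower and 0 were called higher. *BMF*, a BH3-only gene whose protein is known to be held at the cytoskeleton, fell from 1006, 1031 and 926 normalised counts in the control replicates to 671, 633 and 644 in the knockdown replicates. The groups were wide apart compared with the spread within them. This was -0.60 on the log2 scale (standard error 0.10, 95% interval -0.82 to -0.39, adjusted p of 0.0032 from edgeR), and its adjusted p lay between 2.1e-05 and 0.031 over 14 alternative settings. The median log2 fold change of the 11 genes was -0.29, with 6 negative and 5 positive, and 8 were without overlap between the groups. Over all genes tested, the median was -0.02 and 32.2% were without overlap, while 4.64% were called lower and 5.40% higher.

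Among the other BH3-only genes, *PMAIP1* (NOXA, which binds MCL1) had the highest level per kilobase of the family, at 4328 ± 108 normalised counts per kilobase in the control group and 3492 ± 283 in the knockdown group. Its log2 fold change was -0.31 (adjusted p of 0.052 from edgeR), and it was called in 4 of 14 alternatives, with an edgeR adjusted p of 0.012 without control replicate 2. *HRK*, known from dying neurons, had 44.3, 40.7 and 64.4 normalised counts in the knockdown replicates and 19.4, 33.0 and 19.5 in the control replicates, a log2 fold change of 1.04 (edgeR adjusted p of 0.057). *HRK* was called in 6 of 14 alternatives, with 0.011 without control replicate 2. *BIK* had a log2 fold change of -0.85 at 17 to 44 counts per culture (adjusted p of 0.12 from edgeR), and *BAD* one of -0.29 (adjusted p of 0.35), which was -0.01 without control replicate 2. *BIK* was called without control replicate 3 (edgeR adjusted p of 0.038).

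*BCL2L13*, a mitophagy receptor that ends at base 17730855 of chromosome 22, beside *BID*, had a log2 fold change of 0.31 (edgeR adjusted p of 0.095). *BNIP3*, the paralogue of *BNIP3L*, had one of -0.39 (adjusted p of 0.10) and *BCL2L12* one of -0.40 (adjusted p of 0.095). Without control replicate 3, *BCL2L13* and *BNIP3* were called, with edgeR adjusted p of 0.027 and 0.022. In that fit 1087 of 15137 genes were called higher and 994 lower. With the GC and length correction both were also called (edgeR adjusted p of 0.043 and 0.037), as was *BCL2L12* (0.019). That correction called 9.64% of all genes higher and 9.01% lower. For the effector-like *BOK* the log2 fold change was 0.42 (adjusted p of 0.21 from edgeR). For *MOAP1*, whose product binds BAX, it was 0.03 (adjusted p of 0.91), and for *BCL2L15* 0.23 (adjusted p of 0.79). *BCL2A1* had 0 counts in every culture, which allows up to 3 per library. *BCL2L10* had at most 1 count and *BCL2L14* at most 7, and these 3 genes were not tested.

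All 21 listed genes of the mitochondrial apoptosis machinery were tested. Of these, 2 were called lower and 2 higher, against 4.64% lower and 5.40% higher over all genes. *CYCS*, which encodes cytochrome c, rose by 0.60 on the log2 scale (adjusted p of 0.0089 from edgeR). *DIABLO*, whose product blocks the caspase inhibitor XIAP, fell by 0.50 (edgeR adjusted p of 0.00999), and *CASP2*, an initiator caspase, fell by 0.51 (adjusted p of 0.034). *CASP2* lost its call without any 1 of the knockdown replicates or control replicate 1 (edgeR adjusted p of 0.096 to 0.13), and *DIABLO* without knockdown replicate 2 or 3 (both 0.068). *CASP9*, an initiator caspase that cytochrome c switches on, differed by -0.10 on the log2 scale (edgeR adjusted p of 0.68) and *APAF1*, the scaffold that activates it, by -0.03 (adjusted p of 0.90 from edgeR). The median log2 fold change over the list was -0.18, against -0.02 over all genes.

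In the death receptor branch, which can act through *BID*, 10 of 12 listed genes were tested. Of these, 2 were called lower and 0 higher, against 4.64% lower and 5.40% higher over all genes. *FAS*, a death receptor, fell from 704 ± 37.7 to 415 ± 58.5 normalised counts (SD, n = 3), which on the log2 scale is -0.76 (edgeR adjusted p of 0.00345). *TNFRSF10B*, a receptor for TRAIL, fell by 0.38 on the log2 scale (adjusted p of 0.025) and lost its call without knockdown replicate 2 or 3 or control replicate 1 (edgeR adjusted p of 0.14, 0.15 and 0.079). *CASP8*, which cleaves BID, had a log2 fold change of -0.18 (edgeR adjusted p of 0.56). The ligand genes *FASLG*, with 0 counts in every culture, and *TNFSF10*, with 1 to 8, were not tested.

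Of 18 genes whose products set the level or activity of family members, 2 were called higher and 0 lower. The shares over all genes tested were 5.40% higher and 4.64% lower. *BECN1*, an autophagy gene whose product carries a BH3 domain that BCL2 and BCL-XL bind, rose from 667 ± 98.9 to 1164 ± 38.6 normalised counts, a log2 fold change of 0.80 (edgeR adjusted p of 0.0018), and was called in all 14 alternatives. *AKT1*, a survival kinase, rose by 0.41 on the log2 scale (adjusted p of 0.014) and lost its call without any 1 of the knockdown replicates or control replicate 1 (edgeR adjusted p of 0.057 to 0.075). *HUWE1*, *USP9X* and *FBXW7*, whose products add ubiquitin to MCL1 or remove it, were not called, with log2 fold changes of 0.15, -0.01 and -0.06. Of 15 mitophagy genes, 1 was called lower and 0 higher. This was *MAP1LC3B*, which encodes a protein that BNIP3L binds, with a log2 fold change of -0.41 (edgeR adjusted p of 0.025), which lost its call without any 1 of the knockdown replicates (edgeR adjusted p of 0.066 to 0.11).

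**Figure D5:**
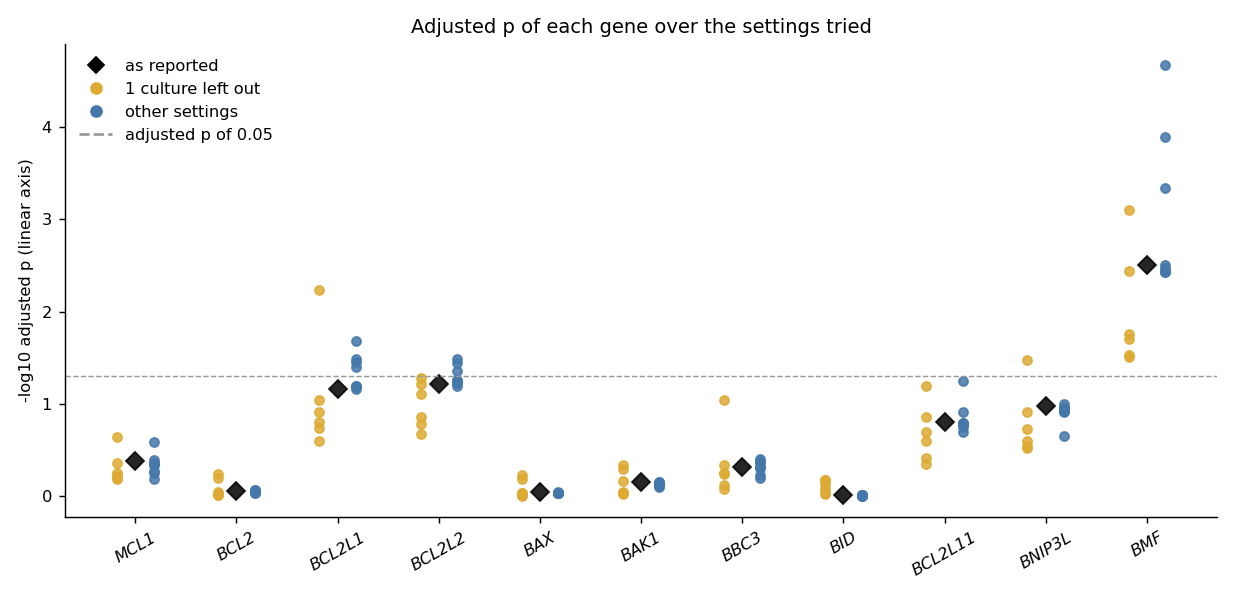
Adjusted p of the 10 members and of *BMF* (vertical axis, -log10, so higher is smaller p) as reported, with 1 culture left out and under the other settings, with the threshold of 0.05 dashed. *BMF* stays above the line throughout, *BCL2L1*, *BCL2L2* and *BNIP3L* cross it in some settings, and the other 7 members stay below it.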

How the data were processed

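RNA-seq counts of 6 HEK293 cultures were used. According to the study's methods, the authors checked and trimmed reads with FastQC and Trim Galore, filtered out ribosomal RNA (SortMeRNA), mapped the rest by STAR and assigned it to genes by featureCounts, and they deposited whole-number counts per gene without normalization. The submitters' processing notes name hg38, while the gene annotation, the strand setting and the treatment of multi-mapping reads are not given in the sources used here. Groups and replicate numbers came from the sample titles, and no column was left unused.

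After filterByExpr and TMM scaling, genes were compared by the robust quasi-likelihood F test of edgeR 4.0.16 (R 4.3.3) without covariates, with Benjamini-Hochberg adjustment over 14877 genes. Normalised counts refer to the average effective library size. Log2 cpm used a prior count of 2. Positions and lengths came from GENCODE release 44 (hg38), promoter windows from RefSeq. Depth was 13900965 to 16869948 counts per culture, and the biological coefficient of variation was 12.4%. The edgeR p-values compare the difference between the groups with the spread between these cultures, which is estimated partly from all genes.

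Named genes were the 10 members, every tested gene of the further family list, and from each other list the called genes, at most 5 by smallest p. *CASP8*, *CASP9*, *APAF1*, *HUWE1*, *USP9X*, *FBXW7* and the overlapping and untested genes were named outside this rule, after their values were seen. Some results of the listed genes are not reported here. The members and lists were chosen with earlier results of these data known.

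Alternatives were DESeq2's size factors, library sizes alone, no filter, a minimum of 10 counts per culture, leaving out each culture, a block on replicate number, the DESeq2 1.42.0 Wald test, limma-voom (limma 3.58.1), and a loess correction (span 0.3) for GC content and length, known for 97.3% of genes. On simulated counts with 200 changed genes among 14715, edgeR recovered 190 with 14 false calls. Recovery was not tested separately for fold changes of the size seen in the members. The study's own comparison used DESeq2.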

Additional observations from a re-analysis of the deposited data

How the results depend on the processing

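Of the 140 log2 fold changes of members over the alternatives, 116 kept their sign and their side of the threshold, 9 passed the threshold in the same direction and 15 changed sign. No member was called lower in the reported fit, and without 1 culture the number was 0 to 1. The number called higher was 2 with no filter, with the DESeq2 Wald test and with the GC and length correction. It was 0 to 1 without 1 culture, and 1 under a block on replicate number, namely *BCL2L1* (adjusted p of 0.040 from edgeR). Over all genes, 879 of 21131 were called higher with no filter, and 917 of 14877 with the DESeq2 Wald test. With the GC and length correction it was 1395 of 14476, and under the block 714 of 14877. The block also called *HRK* (adjusted p of 0.047 from edgeR) and changed no other call among the named genes. Same-numbered cultures did not deviate together (correlations of -0.20, -0.11 and -0.04), so the numbers were not taken as pairs. Leaving out 1 culture gave 233 to 1238 lower and 289 to 1274 higher genes, both highest without control replicate 2, and the GC and length correction gave 1305 lower and 1395 higher genes, where the cause was not tested. Without 1 culture, log2 fold changes ran from -0.0577 to 0.163 for *BCL2*, -0.129 to 0.0352 for *BAX*, -0.164 to 0.0151 for *BAK1*, -0.662 to 0.0790 for *BBC3*, -0.124 to 0.0762 for *BID*, -0.106 to 0.634 for *BCL2L15* and -0.0295 to 0.165 for *MOAP1*. The difference in the log2 *BAX* to *BCL2* ratio ran from -0.284 to 0.0888 and that in *BAK1* to *MCL1* from -0.0703 to 0.146. With the GC and length correction *BAX* was at 0.0164, and with library sizes alone *BID* was at 0.00275, both of the opposite sign to the reported value. The other lists held 11, 21, 10, 18 and 15 genes tested in the reported fit. Over these lists together, 6 genes were called lower and 4 higher, against 4.64% and 5.40% of all genes. With the GC and length correction it was 11 and 8, against 9.01% and 9.64% of all genes. Without 1 culture it was 2 to 11 and 3 to 10, beside the ranges over all genes given above. *BCL2L15* was not tested with at least 10 counts in every culture.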
